A study of Mus musculus with 4 samples.

Results

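Genes of lipid storage were followed across mouse dorsal skin by spatial transcriptomics: the lipid droplet coat proteins *Plin1*, *Plin2*, *Plin4* and *Plin5*, the droplet fusion proteins *Cidea* and *Cidec*, the fatty acid binding proteins *Fabp4* and *Fabp5*, the nuclear receptor *Pparg* and the sterol ester-forming enzyme *Soat1*. The 10 genes were picked by symbol from 32286 features in the count matrices, and all 10 were found. The study placed fresh-frozen dorsal skin of 3 *Krox20-CreERT; R26-tdTomato* mice on Visium slides, on which barcoded spots capture the RNA of the tissue above them, to map *Krox20* and *CreERT* in the follicle and epidermis. All mice were taken at postnatal day 38 and had received 4-hydroxytamoxifen at postnatal day 2. The tamoxifen-activated Cre is expressed from *Krox20*, a gene of hair follicle and other lineages, and switches on tdTomato from the *Rosa26* locus. There was no untreated or Cre-negative group, so the comparisons below are between tissue regions, over 4 slices that the labels give as technical replicates and that each hold a section of every mouse. The p-values therefore measure the spread between slices of the same animals, not between animals.

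Cells store neutral lipid in droplets wrapped by a protein coat. Perilipins sit on the droplet surface and control the access of lipases, and CIDE proteins gather at the contact between droplets and pass lipid from the smaller to the larger one. In adipocytes the coat is built largely of PLIN1 and the fusion step uses CIDEC, whereas the sebocytes of the sebaceous gland, which fill with lipid and then burst into the hair canal, are known for PLIN2 and CIDEA. PPARG drives the differentiation of both cell types, FABP4 and FABP5 carry fatty acids through the cytosol, and SOAT1 joins cholesterol to fatty acids to make the sterol esters found in sebum.

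The promoters of a pair of gland-side genes and a pair of fat-side genes are shown as RefSeq gives them for GRCm38.p6, to set the genes compared below next to the sequence they are transcribed from. Each run holds the 250 bases before the start site, 5′ to 3′ on the minus strand, from which all 4 are transcribed. Capitals mark, on either strand, AGGTCA (the half-site of nuclear receptors such as PPARG), the CCAAT box, the TATAAA box or the E-box CACGTG. The windows of *Plin4*, *Plin5*, *Pparg* and another *Cidec* start site are not shown, since no result below turns on them.
Plin2 (chr4:86670060-86670309): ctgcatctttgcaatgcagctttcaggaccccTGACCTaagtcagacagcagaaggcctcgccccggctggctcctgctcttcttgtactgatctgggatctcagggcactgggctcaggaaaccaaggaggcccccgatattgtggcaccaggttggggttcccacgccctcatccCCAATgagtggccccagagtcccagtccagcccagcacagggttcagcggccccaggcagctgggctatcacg
Soat1 (chr1:156474329-156474578): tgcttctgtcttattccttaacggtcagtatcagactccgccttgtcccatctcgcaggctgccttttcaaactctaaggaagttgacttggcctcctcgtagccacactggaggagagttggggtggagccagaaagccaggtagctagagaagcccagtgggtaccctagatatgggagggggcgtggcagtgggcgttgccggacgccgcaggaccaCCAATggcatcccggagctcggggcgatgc
Plin1 (chr7:79732777-79733026): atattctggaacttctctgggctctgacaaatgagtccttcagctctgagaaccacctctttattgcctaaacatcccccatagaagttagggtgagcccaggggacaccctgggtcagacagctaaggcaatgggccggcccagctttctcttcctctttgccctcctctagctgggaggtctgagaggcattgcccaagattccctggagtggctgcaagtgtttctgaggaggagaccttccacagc
Cidec (chr6:113435761-113436010): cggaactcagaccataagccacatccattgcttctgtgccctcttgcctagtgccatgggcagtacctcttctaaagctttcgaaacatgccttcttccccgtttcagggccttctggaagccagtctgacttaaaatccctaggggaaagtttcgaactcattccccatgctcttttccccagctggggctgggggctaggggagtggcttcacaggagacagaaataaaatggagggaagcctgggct
The *Plin2* window held 1 AGGTCA, written TGACCT on the strand shown, and 1 CCAAT, the *Soat1* window held 1 CCAAT, and the *Plin1* and *Cidec* windows held none of the 4 motifs. Of 32851 RefSeq promoters, 14.0% held AGGTCA, 33.8% held CCAAT, 12.4% held TATAAA and 6.02% held CACGTG in the same first 250 bases. These matches are thus common letters and describe no bound site. The table used had windows for 7 of the 10 genes, not for *Cidea*, *Fabp4* or *Fabp5*. Gene spans here come from GENCODE, another annotation, so the *Plin1* window, set by RefSeq's start, lies partly within the *Plin1* span. The fat-side *Plin1* gene lies at chr7:79720218-79732903 and *Cidec* at chr6:113424634-113435760. *Plin4* (chr17:56100591-56109803) and *Plin5* (chr17:56111601-56117596) are neighbours on the same strand. *Fabp5* (chr3:10012548-10016607) and *Fabp4* (chr3:10204088-10208576) lie near each other on opposite strands, and *Pparg* lies at chr6:115360951-115490399.

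The 4 slices held 6420 spots and between 19393026 and 26910422 unique molecular identifiers (UMIs, each a captured RNA molecule), with medians of 11662 to 14627 UMIs per spot. After removal of 9 spots with fewer than 250 genes, 6411 remained. A spot was placed in a region when its score on a list of marker genes, none of them among the 10, stood at least 1 SD above its slice's mean and at least 0.5 SD above the next list. This gave 305 sebaceous gland spots, 470 fat, 822 muscle, 800 hair matrix, 617 root sheath, 534 epidermis and 229 dermis spots, and 2634 spots with no region. A spot is a small patch of tissue that can hold several cell types, so each region is a set of spots rich in a cell type's genes and not a pure population. Fewer cells of a type and less RNA per cell cannot be told apart in it. Levels are UMIs per 1000000 UMIs (CPM), from the sum over a region's spots in a slice, given as mean ± SD over the 4 slices.

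The marker sums show how far each set of spots was mixed, though the markers also chose the spots. The summed level of the 7 gland markers was 2399 CPM in gland spots (2136 to 2585 across slices) and 492 CPM in fat spots, and that of the 9 fat markers was 2240 CPM in fat spots (2152 to 2380) against 288 CPM in gland spots (269 to 305). *Adig*, which encodes adipogenin and is on the fat list, went the other way, at 62.9 CPM in gland and 44.8 CPM in fat. *Ucp1*, the uncoupling protein that defines brown fat, had no UMI in gland, fat or muscle spots. The brown fat list of 4 genes that holds it summed to 62.0 CPM in fat, 13.2 CPM in gland and 509 CPM in muscle. Most of that was *Cox8b*, at 55.5, 11.9 and 501 CPM. Other tissues differed between the 2 sets of spots: the muscle list summed to 3615 CPM in fat and 1123 CPM in gland, the dermis list to 6278 and 21390 CPM, the epidermis list to 512 and 3658 CPM, the hair matrix list to 31313 and 14224 CPM, the endothelium list to 166 and 200 CPM, and the macrophage list to 224 and 301 CPM. Their part in the gland and fat differences below was not tested. Median depth was 8944 UMIs per gland spot and 14341.5 per fat spot.

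**Figure D1:**
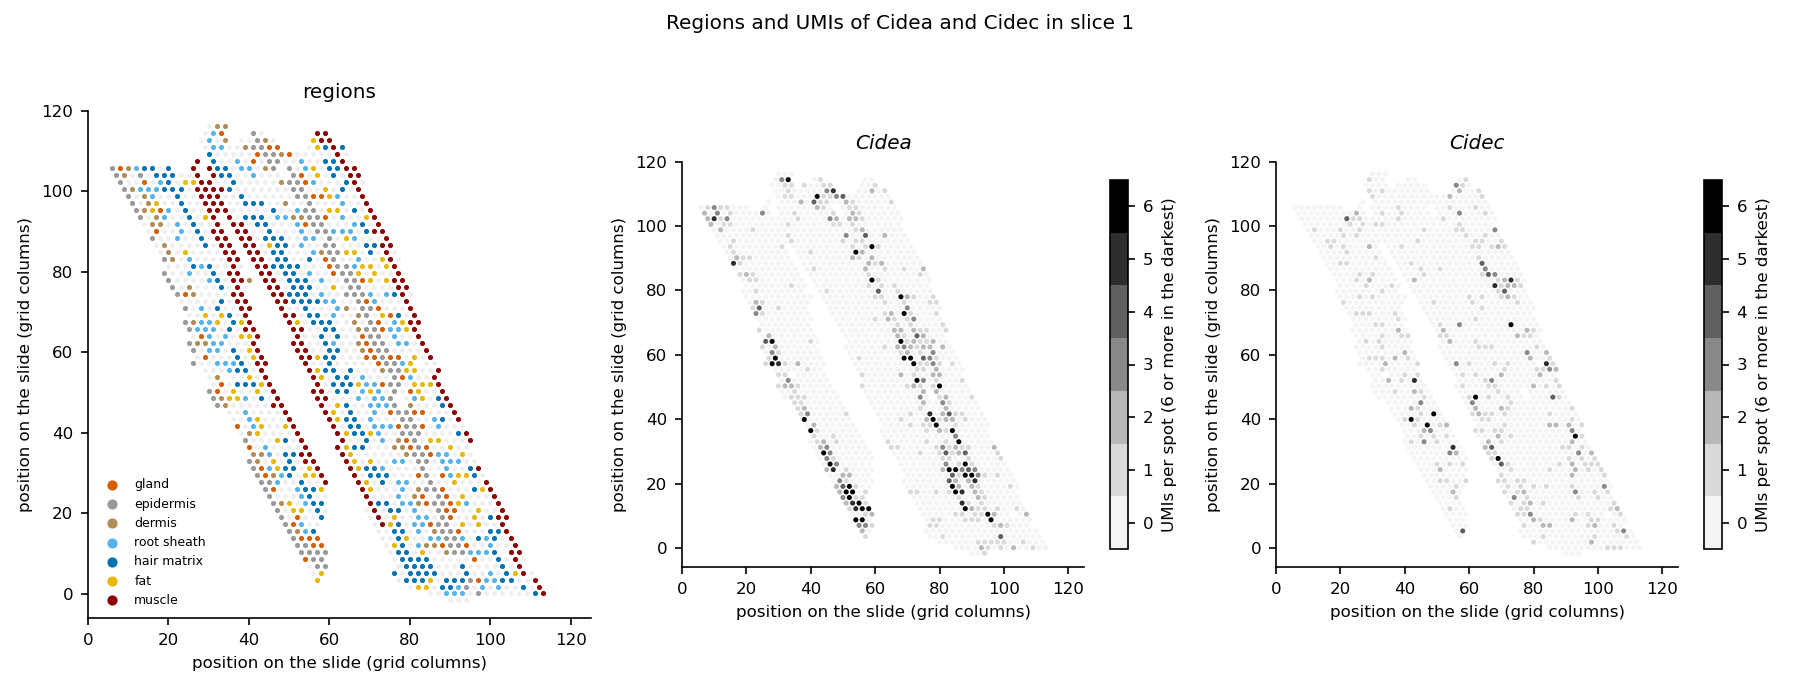
Spots of slice 1 at their positions on the slide (both axes in grid columns), coloured by region in one panel (pale grey for no region) and shaded by UMIs of *Cidea* and of *Cidec* per spot in the others, the darkest shade standing for 6 or more. *Cidea* was found in 74 of 79 gland spots (up to 31 UMIs in a spot) and 16 of 111 fat spots (up to 3), and *Cidec* in 8 gland spots (up to 2) and 71 fat spots (up to 12).

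The droplet fusion pair parted most sharply between gland and fat. *Cidea* stood at 509, 558, 495 and 454 CPM in the gland of slices 1 to 4, and at 9.51, 14.0, 14.1 and 13.8 CPM in fat. The lowest gland slice was far above the highest fat slice, and the fitted difference was 40.6-fold (log2 fold change 5.34, SE 0.16, adjusted p = 1.1e-25 by edgeR's quasi-likelihood test with Benjamini-Hochberg adjustment over 11833 genes). *Cidec* ran the other way, at 9.41, 8.06, 22.1 and 9.15 CPM in gland and 86.0, 84.6, 92.1 and 116 CPM in fat. The slices again did not overlap, and the fitted level was 7.70-fold lower in gland (log2 fold change -2.94, SE 0.25, adjusted p = 1.8e-12). The gland level of *Cidec* rests on 35 UMIs, 14 of them in slice 3.

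The perilipins split in the same manner, *Plin5* apart. *Plin2*, the perilipin found on droplets of most tissues, measured 334, 414, 388 and 252 CPM in gland and 69.7, 69.6, 85.1 and 87.6 CPM in fat, a 4.59-fold difference with no overlap (log2 fold change 2.20, SE 0.15, adjusted p = 1.8e-15). *Plin1*, the adipocyte perilipin that holds the lipase co-activator ABHD5 until a fasting signal arrives, measured 5.23, 1.61, 11.03 and 6.54 CPM in gland and 38.03, 40.04, 33.6 and 41.9 CPM in fat. Every fat slice was above every gland slice, and the fitted level was 6.11-fold lower in gland (log2 fold change -2.61, SE 0.30, adjusted p = 3.4e-09), from 18 gland UMIs of which slice 2 held 1. *Plin4*, a perilipin of adipocytes and muscle, measured 8.37, 4.83, 11.03 and 10.5 CPM in gland and 44.4, 53.1, 47.1 and 65.1 CPM in fat. It too was lower in gland with no overlap, by 5.74-fold (log2 fold change -2.52, SE 0.22, adjusted p = 4.0e-12), from 26 gland UMIs.

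*Soat1* was enriched in gland too, less than *Cidea* and more than *Plin2*. It measured 463, 514, 470 and 430 CPM in gland and 37.1, 32.03, 45.5 and 40.1 CPM in fat, which was 12.5-fold higher in gland without overlap (log2 fold change 3.65, SE 0.12, adjusted p = 2.3e-24). *Pparg* was sparse in both tissues, with 58 gland UMIs and 67 fat UMIs. It measured 23.01, 29.01, 11.03 and 14.4 CPM in gland and 6.34, 6.51, 8.67 and 15.02 CPM in fat. The slices overlapped, since slice 4 of fat lay above slices 3 and 4 of gland, and the fitted 2.26-fold difference passed the test (log2 fold change 1.18, SE 0.27, adjusted p = 0.00058) but fell under 2-fold when slice 1 or slice 2 was left out (log2 fold changes 0.89 and 0.86, adjusted p = 0.048 and 0.043).

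The fatty acid binding proteins were the most abundant of the 10 and did not part as the fusion pair did. *Fabp4*, the adipocyte and capillary form, measured 579, 411, 542 and 507 CPM in gland and 1977, 1942, 1559 and 1883 CPM in fat, 3.503-fold lower in gland with no overlap (log2 fold change -1.81, SE 0.16, adjusted p = 7.5e-12). *Fabp5*, the epidermal form, measured 3498, 3603, 2788 and 2828 CPM in gland and 2399, 2176, 2003 and 1837 CPM in fat. The lowest gland slice was above the highest fat slice, yet the 1.56-fold difference stayed below the 2-fold threshold (log2 fold change 0.64, SE 0.15, adjusted p = 0.0012). *Fabp5* has processed copies elsewhere in the mouse genome, and how reads shared with them were counted was not tested. *Fabp4* is also a gene of endothelium, whose 8 markers summed to 160 to 221 CPM in gland slices and 155 to 177 CPM in fat slices.

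In all, 8 of the 9 genes with enough counts to test passed both limits between gland and fat (adjusted p under 0.05 and at least 2-fold), 4 higher and 4 lower in gland. Over all genes tested 14.2% passed both limits, 8.80% higher and 5.44% lower in gland. The median log2 fold change was 0.64 over the 9 genes and -0.02 over all genes. With regions made by clustering the spots, the direction of all 9 held but the sizes moved. *Plin4* and *Fabp4* fell under 2-fold (log2 fold changes -0.87 and -0.81), *Plin1* (-1.22) and *Cidec* (-1.72) drew closer to 0, and *Cidea* (7.95), *Soat1* (4.58), *Plin2* (3.92) and *Pparg* (2.55) moved farther from it.

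**Figure D2:**
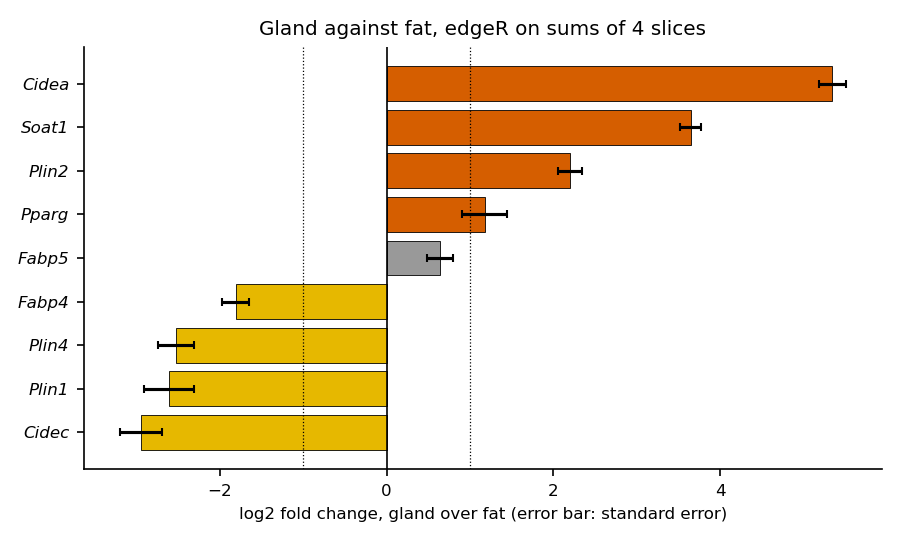
Fitted log2 fold change of gland over fat for the 9 genes tested (bars, with the standard error), with dotted lines at 2-fold. *Cidea*, *Soat1*, *Plin2* and *Pparg* (orange) passed both limits higher in gland, *Cidec*, *Plin1*, *Plin4* and *Fabp4* (yellow) lower, and *Fabp5* (grey), at 0.64, did not.

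*Plin5*, the perilipin of oxidative tissue that couples droplets to mitochondria, was near the limit of detection. The 6411 spots held 49 UMIs of it, 30 of them in muscle, 4 in gland, 4 in fat, 1 each in hair matrix and root sheath, and the rest in spots with no region. Muscle spots measured 2.99, 2.07, 0.879 and 4.17 CPM, and gland spots 4.18 CPM in slice 1 with none in slices 2, 3 and 4. No UMI fell in the 534 epidermis or 229 dermis spots, which allows shares of up to 0.562% and 1.31% of spots with a UMI, by counting error only. The gene did not pass the low-count filter, so no test was made.

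Since each gene is captured with its own efficiency, only the change of a ratio of 2 genes between regions was read. *Cidea* over *Cidec*, in UMIs, was 54.1, 69.2, 22.4 and 49.6 in the gland of slices 1 to 4 and 0.111, 0.166, 0.153 and 0.119 in fat. This was the widest of the 4 ratios, with a log2 difference between gland and fat of 8.39 ± 0.80 (SD, n = 4). *Plin2* over *Plin1* was 63.8, 257, 35.1 and 38.6 in gland and 1.83, 1.74, 2.53 and 2.09 in fat, a log2 difference of 5.08 ± 1.52 in which the value of 257 divides by a single *Plin1* UMI. *Plin2* over *Plin4* was 39.9, 85.7, 35.1 and 24.1 in gland and 1.57, 1.31, 1.80 and 1.35 in fat, a log2 difference of 4.79 ± 0.86. *Fabp5* over *Fabp4* was 6.04, 8.77, 5.14 and 5.57 in gland and 1.21, 1.12, 1.28 and 0.975 in fat, a log2 difference of 2.45 ± 0.41, or 1.22 with clustered regions. Each of the 4 ratios was higher in gland in 4 of 4 slices, at p = 0.13 by an exact two-sided sign-flip test, which is the smallest p that 4 slices allow and is unchanged by adjustment over the 4 ratios. Summed over slices, the *Cidea* to *Cidec* ratio was 42.7 in gland (exact 95% interval 30.6 to 61.5, counting error only) and 0.136 in fat (0.109 to 0.168).

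**Figure D3:**
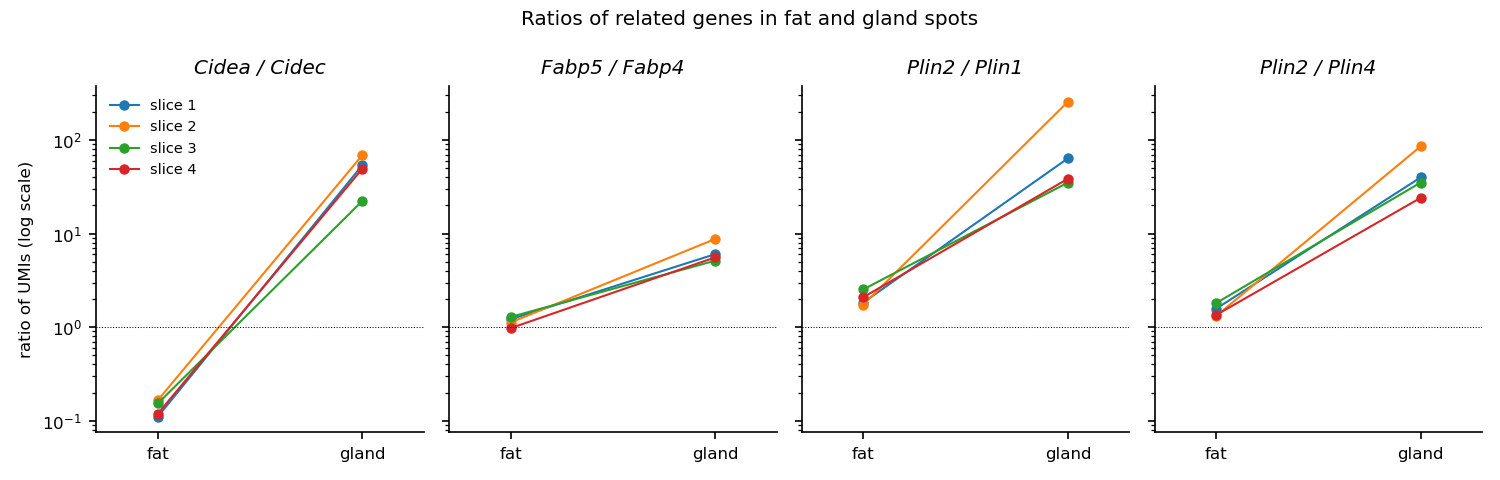
Ratio of UMIs on a log axis for 4 gene pairs, with 1 line per slice from fat to gland. All 4 pairs rose from fat to gland in all 4 slices, by a mean log2 difference of 8.39 for *Cidea* over *Cidec* and 2.45 for *Fabp5* over *Fabp4*.

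The split also showed in how many spots held a gene at all. *Cidea* was found in 87.8% ± 5.45 of gland spots (SD, n = 4) and 15.2% ± 1.81 of fat spots, close to the 11.8% ± 2.74 of muscle spots, a tissue that should lack it (median 14197 UMIs per spot). With every spot thinned to 5000 UMIs and 48 gland and 29 fat spots left out as shallower, the *Cidea* shares were 79.2% in gland, 6.59% ± 1.59 in fat and 5.51% ± 1.20 in muscle, so the fat share was within the spread of that of muscle. Hair matrix, deeper at a median of 17567.5 UMIs per spot, had less, with 5.58% ± 1.18 of spots before thinning and 1.54% ± 0.949 after it. *Cidec* was found in 66.4% ± 2.76 of fat spots and 9.38% ± 4.76 of gland spots, and after thinning in 36.0% and 5.81%. Epidermis, which should lack *Cidec*, had it in 3.74% ± 1.34 of spots (median 8309 UMIs) and 1.73% after thinning. *Plin1* was found in 41.8% ± 4.78 of fat spots and 5.40% ± 3.08 of gland spots, and after thinning in 20.9% and 2.23%, against 2.57% and 1.24% in epidermis. The gland share of *Plin1* was thus above that of epidermis, a tissue without adipocytes, but nearer to it than to that of fat. *Fabp4* and *Fabp5* were in 89.3% or more of the spots of gland, fat, muscle and epidermis, so their shares carry no contrast.

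Next, the gland was set against the epithelia around it. Against root sheath spots, *Cidea* (log2 fold change 3.92, SE 0.14), *Soat1* (3.49, SE 0.12), *Pparg* (2.47, SE 0.32) and *Plin2* (1.31, SE 0.14) were higher in gland and *Fabp4* (-1.18, SE 0.16) was lower. These were 5 of 9 genes, where 10.8% of all genes passed, 7.01% higher and 3.75% lower. The other fat-side genes gave no such difference: *Plin1* differed by -0.29, *Cidec* by -0.16 and *Plin4* by 0.02 on the log2 scale (adjusted p = 0.66, 0.79 and 0.98). With regions made by clustering, where the root sheath clusters took in 236 fat spots, all 3 passed both limits lower in gland (-1.38, -1.88 and -1.06). *Fabp5*, at 0.77, stayed under the 2-fold limit. *Plin2* had the smallest margin of the 4 genes called higher, and root sheath spots held 121, 140, 156 and 114 CPM of it, the highest mean of any region after gland.

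Against epidermis spots 6 of 9 genes were higher in gland, where 6.43% of all genes passed, 2.94% higher and 3.49% lower. *Cidea* (2.77, SE 0.14), *Soat1* (2.51, SE 0.12), *Pparg* (2.12, SE 0.34) and *Plin2* (2.04, SE 0.15) were higher in gland on the log2 scale, and here *Fabp5* passed as well (1.43, SE 0.16). *Cidec* passed narrowly (1.40, SE 0.47, adjusted p = 0.033), and did not when slice 1, 2 or 3 was left out (adjusted p = 0.10, 0.056 and 0.11). Nor did it pass with a region rule of 1.5 SD, the 3 strips as units or clustered regions (edgeR adjusted p = 0.10, 0.16 and 0.82). Its log2 fold change with clustered regions was 0.28. Epidermis and dermis spots still held *Cidea*, at 71.3 ± 13.1 and 88.0 ± 14.3 CPM, more than the 9.46 ± 3.19 CPM of muscle or the 3.21 ± 0.710 CPM of hair matrix. The gland list summed to 464 and 484 CPM in epidermis and dermis, against 367 CPM in muscle and 389 CPM in hair matrix. The part of gland cells in the epidermis and dermis levels was not tested. *Plin2* was 81.9 ± 19.01 CPM in epidermis spots and 107 ± 19.1 CPM in dermis spots.

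**Figure D4:**
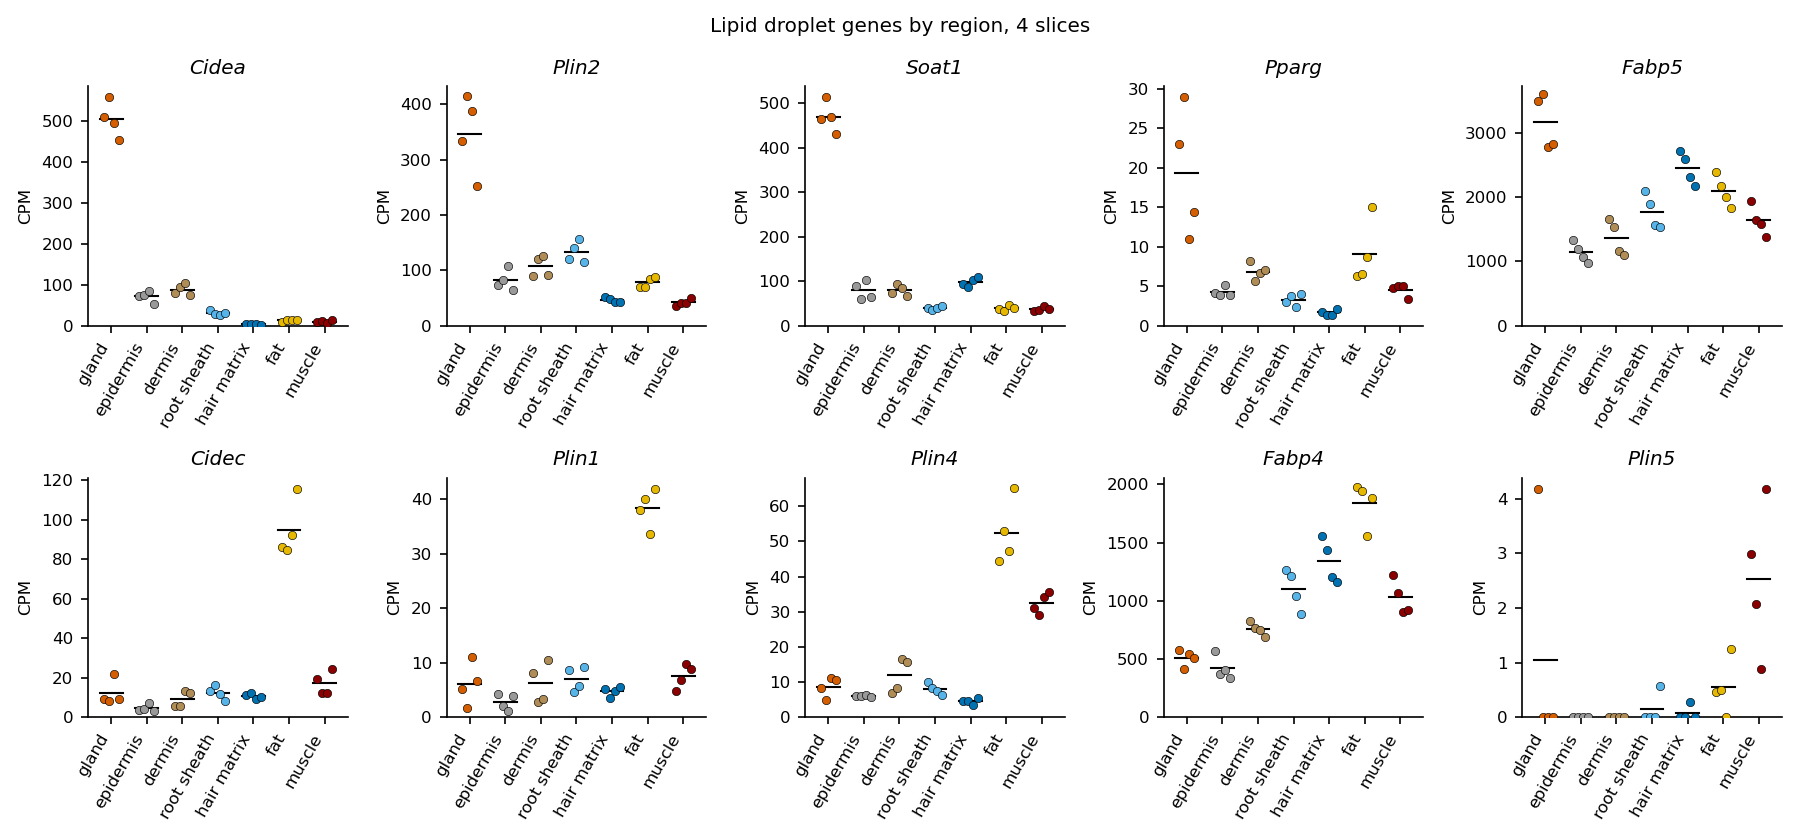
CPM of each gene in the 7 regions, 1 point per slice with the mean, each gene on its own axis. *Cidea*, *Soat1* and *Plin2* peaked in gland, *Plin1*, *Plin4*, *Cidec* and *Fabp4* in fat, and the few *Plin5* counts in muscle.

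Fat was then set against muscle, the panniculus carnosus that lies beneath it. *Cidec* was higher in fat, at 94.6 ± 14.5 CPM against 19.4, 12.1, 12.01 and 24.6 CPM in muscle (log2 fold change 2.36, SE 0.16, adjusted p = 5.4e-15). *Plin1* was higher in fat too, at 38.4 ± 3.58 CPM against 4.78, 6.80, 9.67 and 8.76 CPM in muscle (2.22, SE 0.19, adjusted p = 2.5e-12). Neither gene's slices overlapped, and these were the only 2 of 9 genes to pass both limits, where 7.19% of all genes passed, 2.72% higher and 4.47% lower in fat. When the regions were made by clustering the spots, in which 236 of the 470 fat spots fell in root sheath clusters, both calls were lost (log2 fold changes 0.11 and 0.25).

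*Plin4* did not follow *Cidec* and *Plin1* in muscle, and neither did *Fabp4*. With each slice left out in turn, *Fabp4* was higher in fat by 0.64 to 0.77 on the log2 scale, under the 2-fold limit. *Plin4* measured 31.1, 29.0, 34.3 and 35.5 CPM in muscle spots, against 44.4 to 65.1 CPM in fat, and the 2 sets of slices did not overlap. The fitted *Plin4* difference was 0.55 on the log2 scale (SE 0.12, adjusted p = 0.00066), under the 2-fold limit, and no *Plin4* call was made between fat and muscle. The fat list summed to 366 CPM in muscle spots (316 to 397), and the part of adipocytes among muscle fibres in the muscle level was not tested. *Cidea* (0.32), *Fabp5* (0.22) and *Soat1* (-0.09) differed little between fat and muscle on the log2 scale. With clustered regions *Plin4* (-1.23) and *Cidea* (-2.08) turned direction and passed both limits lower in fat.

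Against dermis spots, fat was higher for *Cidec* (log2 fold change 3.36, SE 0.28), *Plin1* (2.59, SE 0.31), *Plin4* (2.12, SE 0.21) and *Fabp4* (1.23, SE 0.16), and lower for *Cidea* (-2.83, SE 0.20) and *Soat1* (-1.10, SE 0.15). These were 6 of 9 genes, where 12.9% of all genes passed, 4.33% higher and 8.56% lower in fat. The *Soat1* call fell under 2-fold without slice 2 (-0.95). Muscle against dermis gave 4 of 9 genes, *Plin4* higher (1.58, SE 0.22) and *Cidea* (-3.16, SE 0.20), *Plin2* (-1.28, SE 0.17) and *Soat1* (-1.01, SE 0.15) lower, where 20.2% of all genes passed, 8.79% higher and 11.5% lower in muscle. *Soat1* fell under 2-fold there without slice 1 or slice 2 (log2 fold changes -0.996 and -0.89), and *Cidec*, at 1.00 (SE 0.35), lay just under the limit and passed it without slice 3 (1.35).

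After gland, the highest mean level of *Soat1* was in the hair matrix, the dividing cells of the bulb that build the hair shaft. *Soat1* is known outside the gland from a mouse variant of the gene that alters the interior of the hair shaft. Hair matrix spots measured 92.8, 86.6, 104 and 109 CPM, above the 39.1, 35.6, 40.3 and 44.5 CPM of root sheath spots in every slice. They overlapped the epidermis spots, at 89.9, 60.04, 102 and 63.8 CPM, and the dermis spots, at 73.4, 92.6, 84.5 and 66.6 CPM. The contrast with root sheath was added after the *Soat1* levels had been seen, so its 2.53-fold difference (log2 fold change 1.34, SE 0.12) is a description. *Cidea* (-3.21, SE 0.23) and *Plin2* (-1.46, SE 0.14) went the other way, so 3 of 9 genes passed, where 18.2% of all genes did, 5.12% higher and 13% lower in hair matrix. *Plin2* measured 51.5, 48.4, 42.2 and 43.3 CPM in hair matrix, 2.76-fold under root sheath.

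The order of the 7 regions by mean level fell into few shapes. *Cidea*, *Soat1*, *Plin2*, *Fabp5* and *Pparg* were highest in gland, at 5.72, 4.79, 2.61, 1.295 and 2.12 times the next region. *Cidec*, *Plin1*, *Plin4* and *Fabp4* were highest in fat, at 5.55, 5.12, 1.62 and 1.37 times the next. The slices of the first and second region did not overlap for 8 of these 9 genes, and did for *Pparg*. The share of all genes without such overlap was not computed, and the same slice means ranked the regions, so the 8 are a description only. The gap was narrowest for the fatty acid binding proteins, since hair matrix measured up to 1558 CPM of *Fabp4* against at least 1559 CPM in fat, and up to 2723 CPM of *Fabp5* against at least 2788 CPM in gland. Below fat, the *Plin1* means of muscle, root sheath, dermis, gland and hair matrix lay between 4.72 and 7.50 CPM, within their slice-to-slice spread.

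Position in the tissue was read as the number of spots counted inward from the nearest epidermis spot (step 0) of the same slice and strip of tissue. *Cidea* measured 71.3 ± 13.1 CPM at step 0, 250 ± 28.9 CPM at step 1, 94.2 ± 11.7 CPM at step 2 and 24.4 ± 7.64 CPM at step 3. *Soat1* followed with 221 ± 16.6 CPM and *Plin2* with 185 ± 31.4 CPM at step 1, and all 3 peaked at step 1 in 4 of 4 slices, where 28.8% of spots were gland. *Plin2* fell off more slowly, to 124.8 ± 13.5 CPM at step 3 and 109 ± 7.64 CPM at step 4. *Soat1* came back to 80.8 ± 7.74 CPM at step 6, where 35.7% of spots were hair matrix.

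The fat-side genes rose deeper in the skin. *Cidec* was 4.42 ± 1.95 CPM at step 0 and 33.4 ± 6.97 CPM at step 3, where 14.9% of spots were fat, and held 28.5 ± 8.53 CPM at step 8, where 16.8% were fat and 40.8% muscle. *Plin1* had its highest mean at step 2 (15.1 ± 5.36 CPM), although slices 1 and 2 peaked at steps 10 and 8. *Plin4* had 20.7 ± 3.08 CPM at step 2, 12.7 ± 1.16 CPM at step 6 and 28.3 ± 5.21 CPM at step 8, and its maximum fell at step 8 or 9 in every slice. *Fabp4* climbed from 421 ± 104 CPM at step 0 to 1612 ± 213 CPM at step 4.

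**Figure D5:**
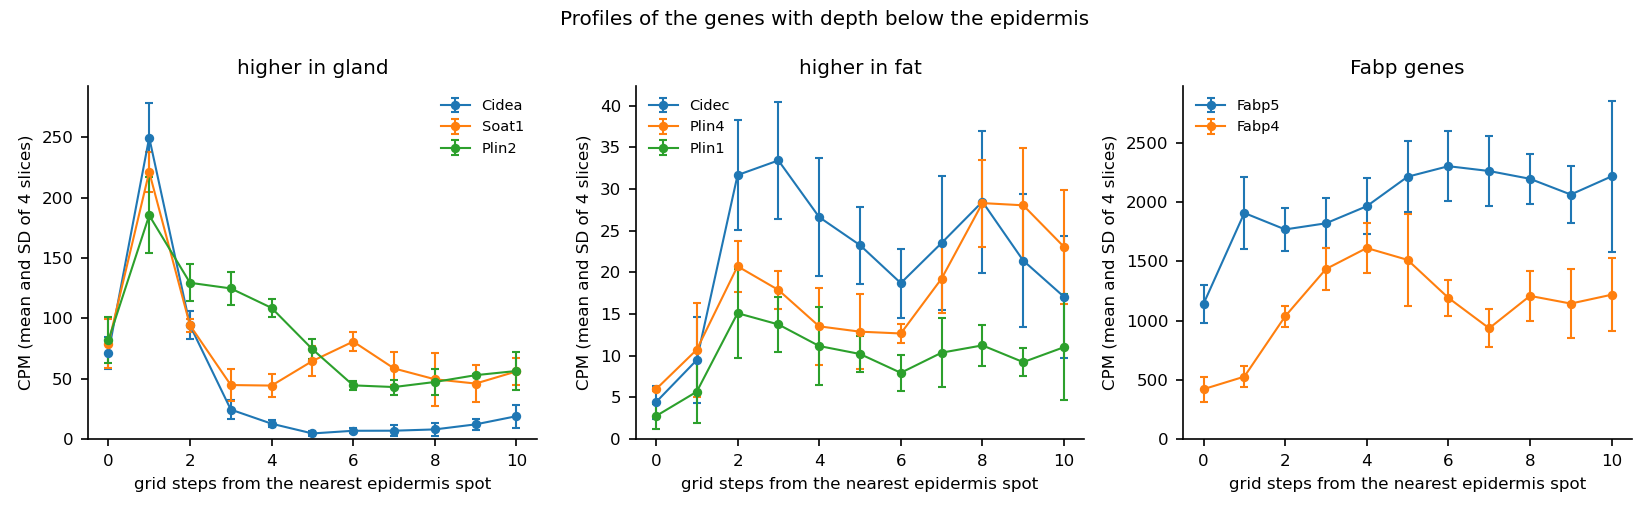
Mean CPM (points) and SD over 4 slices (bars) by number of grid steps from the nearest epidermis spot, in 3 panels for genes higher in gland, genes higher in fat and the fatty acid binding proteins. *Cidea*, *Soat1* and *Plin2* peaked 1 spot from the epidermis in all 4 slices, and *Plin4* was highest at 8 or 9 spots.

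The signals dropped steeply at the edge of each region. Spots next to a region are ones that missed its marker rule, and its markers fell as well. *Scd3* went from 359 ± 86.8 to 56.4 ± 7.67 CPM at the gland edge, and *Adipoq* from 209 ± 35.0 to 39.1 ± 4.14 CPM at that of fat. How far the rule itself sets the edges was not tested. *Cidea* fell from 504 ± 42.9 CPM in gland spots to 93.9 ± 19.95 CPM 1 spot away and 38.1 ± 10.4 CPM 2 spots away. *Soat1* fell from 469 ± 34.5 to 87.3 ± 7.76 CPM over the first step, and *Plin2* from 347 ± 71.4 to 111 ± 12.5 CPM. *Fabp5* fell from 3179 ± 431 to 1516 ± 141 CPM and then rose again away from the gland, to 2256 ± 285 CPM at 5 spots. Out from fat, *Cidec* fell from 94.6 ± 14.5 to 19.4 ± 1.79 CPM, *Plin1* from 38.4 ± 3.58 to 8.68 ± 1.70 CPM and *Plin4* from 52.4 ± 9.20 to 14.5 ± 1.95 CPM over the first step. *Fabp4* dropped less, from 1840 ± 191 to 1105 ± 130 CPM. *Plin2* showed no edge around fat, with 78.0 ± 9.70 CPM inside and 69.5 ± 4.996 CPM 1 spot out.

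The spots of each slice were grouped by position into 3 strips of tissue, a number set beforehand. The strips may be the 3 mice, although the labels do not tie a strip to a mouse. Summed over slices, *Cidea* in gland was 626, 463 and 467 CPM in strips 1 to 3 and 8.65, 9.82 and 19.8 CPM in fat. *Cidec* in fat was 94.8, 67.4 and 115 CPM, with 10.3, 6.18 and 16.6 CPM in gland. *Plin1* in fat was 33.9, 27.2 and 53.2 CPM, with 5.87, 6.18 and 6.04 CPM in gland. The strips of gland and fat did not overlap for *Cidea*, *Cidec*, *Plin1*, *Soat1* (411 to 646 against 35.7 to 41.2 CPM) or *Plin2* (328 to 379 against 56.7 to 102 CPM). The strip overlap of *Plin4*, *Fabp4*, *Fabp5* and *Pparg* is not given here. The share of all genes without overlap between 3 strips per region was not computed, so the separation is a description only. Strip 3 had the highest fat level of *Cidea*, *Cidec*, *Plin1*, *Plin2* and *Plin4*. Strip 3 also differed in its sex-linked RNA, since *Xist* made up 74.6% to 85.5% of the UMIs of *Xist* and 4 Y-linked genes there and 8.96% to 14.7% in strips 1 and 2. Sex and animal cannot be told apart in these strips.

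The rest of the lipid storage pathway was taken from 6 lists of 40 further genes, 34 of which could be tested. Between gland and fat 9 were higher in gland and 6 lower, and 19 did not pass, against the 14.2% of all genes given above. The median log2 fold change of the 34 was 0.31. The fatty acid transporter *Slc27a4* (521 ± 59.9 CPM in gland and 84.3 ± 12.8 CPM in fat), and *Mgll*, which cleaves the last fatty acid from monoglycerides (647 ± 41.8 and 105 ± 6.61 CPM), were 6.40-fold and 6.34-fold higher in gland. *Fabp3*, the muscle fatty acid binding protein, was the farthest in the other direction (log2 fold change -3.51). *G0s2*, on the lipolysis list, came next (-2.93), at 6.25 ± 2.75 CPM in gland and 48.5 ± 6.89 CPM in fat. By list, the droplet coat and formation proteins gave 3 higher and 1 lower of 9 tested, triglyceride synthesis 2 higher of 5, lipolysis 1 higher and 2 lower of 5, fatty acid uptake 1 higher and 3 lower of 7, sterol esters 1 of 1 higher and regulators 1 higher of 7.

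In the other contrasts the counts of the same 34 genes ran from well above the share of all genes to below it. Gland against root sheath gave 11 higher and 1 lower (35.3% of the 34, against 10.8% of all genes), led by *Mgll* (2.66 on the log2 scale), the droplet hydrolase *Ldah* (2.60) and *Slc27a4* (1.97). Gland against epidermis gave 9 higher and 3 lower (35.3%, against 6.43%). Fat against muscle gave 5 higher and 3 lower (23.5%, against 7.19%), the lower ones being *Fabp3* (-3.44), the droplet formation protein *Fitm1* (-3.30) and the carbohydrate-responsive factor *Mlxipl* (-1.83). Fat against dermis gave 8 higher and 2 lower (29.4%, against 12.9%). Muscle against dermis gave 5 higher and 4 lower, led by *Fitm1* (4.79) and *Fabp3* (4.70), which at 26.5% was near the 20.2% of all genes. Hair matrix against root sheath gave none higher and 4 lower, under the share of all genes at 11.8% against 18.2%, led by the hypoxia-induced droplet protein *Hilpda* (-2.55).

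Finally, the genes most alike to 4 of the 10 across the 28 region and slice sums were listed, by Pearson r of log2(CPM + 1) over 6271 genes, as a description in which the 28 points share slices. The 6271 genes had a mean of at least 20 CPM. All marker genes and the 10 themselves were left out of them, so no marker could be listed. *Cidea* was most like *Paqr7* (r = 0.98), *Fa2h* (0.98), *Serpina3j* (0.97), *Serpina3b* (0.97) and *Aadac* (0.97). *Cidec* was most like *Hp* (0.93), *Thrsp* (0.87), *Slc1a5* (0.84), *Cd36* (0.84) and *Fmr1* (0.83), and *Plin1* was most like *Fmr1* (0.86), *Thrsp* (0.85), *Hp* (0.84), *Lrg1* (0.81) and *Lmo4* (0.79). *Hp*, *Thrsp* and *Fmr1* were on both of the last lists. *Fabp5* had looser neighbours, *Coq3* (0.84), *Ppa1* (0.82), *Cox6a1* (0.81), *Tmem135* (0.79) and *Tomm6* (0.79). Among the 10 themselves, *Plin2* with *Cidea* gave 0.88, *Plin1* with *Cidec* 0.85, *Cidea* with *Cidec* -0.32 and *Plin1* with *Plin2* -0.14.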

How the data were processed

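Visium libraries of 4 slices of mouse dorsal skin were analysed. Per the matrix headers and the labels, the authors mapped and counted reads with Space Ranger 2.0.1 on mm10, and the deposited values are raw UMI counts per gene and spot, used as deposited. The study left out what it calls the fourth section, for its distorted structure. Whether that is the slice labelled 4 is not given in the sources used here, so slice 4 was used, and leaving it out changed 0 calls of the 10 genes. All spots were kept except 9 with fewer than 250 genes. Groups come from the labels, which give 1 group of 4 technical replicates.

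Spots were scored on marker lists (8 of 9 hair matrix markers and all markers of the other regions were found) as the mean log of 1 plus UMIs per 10000, standardised within each slice. The UMIs of a region's spots were added up within each slice, and the 7 regions were fitted together in edgeR 4.0.16 (R 4.3.3; TMM, filterByExpr, quasi-likelihood F-test, Benjamini-Hochberg adjustment over 11833 genes). A gene was called at adjusted p under 0.05 and a log2 fold change of at least 1. Isoform ratios used exact two-sided sign-flip tests, and the exact intervals of the summed ratios came from scipy 1.17.1. The fit was tried on simulated data with the depths of gland against fat, over 11383 genes. At adjusted p under 0.05 alone, 66.0% of 200 genes changed 2-fold were recovered, and 2.94% of the genes passing were false. The fold limit was not applied there, so these shares do not describe the calls made with both limits. The slice number pairs sums that share sections, with mean same-slice correlations of 0.17, 0.09, 0.06 and 0.10 against -0.09 to -0.06 between slices.

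All 10 genes are named, and of the pathway lists only some of the largest called changes per contrast. For *Cidea*, *Plin1*, *Cidec* and *Fabp5* the 5 genes most like each are named, and those of *Plin2* are not reported here. The genes are set by symbol and not by a level, but they and the lists were chosen with earlier results of these data known. The alternatives were library-size scaling, DESeq2 1.42.0, no low-count filter, the slice as a block, each slice left out, other region rules, clusters of spots (leidenalg 0.10.2), the 3 strips as units, a 1000-gene spot filter and thinning to 5000 UMIs. Spots were not screened for doublets, since a spot covers several cells. Of 2485 spot barcodes 1842 occur in more than 1 slice, as all slides share 1 layout. Intervals cover counting error only.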

Additional observations from a re-analysis of the deposited data

Results flagged for a closer look

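Dixon's test was run on 74 sets of 4 slice values and found an extreme slice in 7. Chance gives about 1 in 20, but the 7 are no count to set against it, since a gene with UMIs in a single slice is always picked out, as *Plin5* was 3 times, and the *Cidea* to *Cidec* ratio repeats the *Cidec* value. *Cidea* in fat was 9.51 CPM in slice 1 against 13.8 to 14.1 CPM in the others. *Cidec* in gland was 22.1 CPM in slice 3, from 14 UMIs, against 8.06 to 9.41 CPM, and the log2 difference of the *Cidea* to *Cidec* ratio between gland and fat was accordingly 7.20 in slice 3 against 8.70 to 8.94. *Pparg* in muscle was 3.34 CPM in slice 4, from 8 UMIs, against 4.78 to 5.03 CPM. The other 3 sets were *Plin5*, with its gland UMIs all in slice 1 (4.18 CPM), its hair matrix UMI in slice 3 (0.280 CPM) and its root sheath UMI in slice 4 (0.571 CPM).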

How the results depend on the processing

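Of 801 log2 fold changes of single genes recomputed under other settings, 748 kept their side of an adjusted p of 0.05. Another 34 no longer passed it, 13 passed it newly and 6 changed sign while passing it in at least 1 setting. Changes of sign that passed in neither setting are among the 748, as for *Cidec* in gland against root sheath (-0.57 to 0.12 with slices left out). With the 2-fold limit included, 18 calls were lost and 9 gained. The 6 sign changes that passed in at least 1 setting all came from regions made by clustering. They were *Plin4* in gland against root sheath (-1.06), and in fat against muscle *Plin2* (-0.86), *Plin4* (-1.23), *Cidea* (-2.08), *Fabp4* (-0.64) and *Pparg* (-0.65). Clusters also gave 8 genes called between gland and root sheath in place of 5, and a log2 difference of 1.22 for *Fabp5* over *Fabp4* in place of 2.45. The fat cluster held 115 of the 470 fat spots, and no cluster was named dermis, so contrasts with dermis had no value there. Nor did *Cidea* over *Cidec*, for want of a *Cidec* UMI in 1 gland slice.

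With each slice left out in turn, the genes called numbered 7 to 8 in gland against fat, 5 in gland against root sheath, 5 to 6 in gland against epidermis, 2 in fat against muscle, 5 to 6 in fat against dermis, 3 to 5 in muscle against dermis and 3 in hair matrix against root sheath. The log2 differences of the ratios ranged from 8.20 to 8.78 for *Cidea* over *Cidec*, 2.28 to 2.60 for *Fabp5* over *Fabp4*, 4.37 to 5.51 for *Plin2* over *Plin1* and 4.37 to 4.99 for *Plin2* over *Plin4*. With the slice as a replicate block, the genes called numbered 8, 5, 6, 2, 6, 4 and 3 in those 7 contrasts, as without it. Depth limits *Plin5*, *Pparg* and the gland levels of *Plin1*, *Plin4* and *Cidec* most.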
